A study of Homo sapiens with 2 samples.

Results

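The genes described here encode the factors that start and elongate translation on the cytoplasmic ribosome. The 49 members were taken from a fixed list of symbols. Each was matched by its symbol to 1 Ensembl gene of the 57736 genes listed in the deposited tables. The match used no measured value, but the list was chosen with earlier results of these data known. They were sorted by known complex into 11 groups: eIF1 with its relatives, eIF2, eIF2B, eIF3, eIF4, the 4E-BP repressors, the late initiation factors, eIF5A, eEF1, eEF2 and the eEF2 kinase.

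The samples were 2 replicate poly(A)+ RNA-Seq libraries of wild-type HEK293T, a line derived from human embryonic kidney and carrying a viral large T antigen. Per the labels, both cultures were held at 43 °C for 20 min, returned to 37 °C for 6 h, lysed separately, and sequenced as 50 bp reads, whereas the study's text gives a longer exposure to 43 °C. Untreated cells were not analysed here, so each value is a level after heat shock and recovery, and none is a response to heat. The libraries held 22529828 and 26890199 expected counts over all genes. Among marker genes, VIM, UCHL1, KRT18 and CDH2 were read in both libraries at 684 and 611, 397 and 367, 58.1 and 47.1, and 41.9 and 44.3 TPM (a share of all transcripts, corrected for transcript length), whereas the blood markers PTPRC and CD3E were at 0 counts in both libraries, and so was KRT19 of the epithelial list. Of the kidney markers, PAX2 had 7.83 and 6.86 TPM and WT1 9.03 and 8.73 TPM, and PAX8 had 1 count in each library. EPCAM, an epithelial gene, was under 1 TPM in both. HBA1, a globin gene, was listed at 9.24 and 7.61 TPM. Of the fibroblast markers, COL1A1 had 24.1 and 20.9 TPM, COL3A1 2.07 and 1.58 TPM, and DCN 0.31 and 0.85 TPM.

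Translation begins when eIF2, carrying the initiator tRNA, joins the small ribosomal subunit together with eIF1, eIF1A, eIF3 and eIF5, while the eIF4 proteins bind the cap and unwind the leader of the mRNA. eIF2 is recharged with GTP by eIF2B, and phosphorylation of its alpha subunit, which follows many stresses including heat, blocks this step. During elongation eEF1A brings each aminoacyl-tRNA and eEF2 moves the ribosome along the mRNA, and many of the mRNAs for these proteins begin with a run of pyrimidines, the 5′ terminal oligopyrimidine tract, through which mTORC1 signalling controls their translation.

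That tract can be read from the bases around the annotated start of each gene, so these sequences are shown before the levels. Of the 49 members, 40 had at least 1 start in the RefSeq promoter table, and 10 of the 40 had a start at which the first base was C and each of the next 4 was C or T, on the strand of the gene. The 10 are printed from 10 bases before the start, with the unbroken pyrimidine run from the start in capitals and positions in GRCh38.p14.
EEF2 (chr19:3985444-3985473, minus strand): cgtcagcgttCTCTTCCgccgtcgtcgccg
EEF1A1 (chr6:73521013-73521042, minus strand): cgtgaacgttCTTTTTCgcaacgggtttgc
EEF1B2 (chr2:206159885-206159914, plus strand): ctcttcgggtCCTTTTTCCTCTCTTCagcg
EIF3D (chr22:36529147-36529176, minus strand): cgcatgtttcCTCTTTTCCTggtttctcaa
EIF3F (chr11:7987327-7987356, plus strand): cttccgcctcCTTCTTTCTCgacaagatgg
EIF3K (chr19:38619178-38619207, plus strand): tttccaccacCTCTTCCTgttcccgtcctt
EIF3M (chr11:32583821-32583850, plus strand): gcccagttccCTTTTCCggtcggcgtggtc
EIF4A2 (chr3:186783567-186783596, plus strand): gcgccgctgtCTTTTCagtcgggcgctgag
EIF4B (chr12:53006446-53006475, plus strand): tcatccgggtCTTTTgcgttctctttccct
EIF2S3 (chrX:24054946-24054975, plus strand): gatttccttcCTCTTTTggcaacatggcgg

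The run was 16 bases long in EEF1B2 and 5 to 10 bases long in the other 9. EEF1G and EIF4A1, which were read at levels as high as most of these genes or higher, had other bases at their annotated start.
EEF1G (chr11:62573872-62573901, minus strand): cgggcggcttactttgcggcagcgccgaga
EIF4A1 (chr17:7572815-7572844, plus strand): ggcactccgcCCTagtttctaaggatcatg
Per start, 10 of 54 member starts (18.5%) held the pattern, beside 1429 of 35116 starts in the whole table (4.07%). Per gene, the share was 25% of the 40 members and 7.54% of the 10025 detected protein-coding genes in the table. Only bases at the annotated start were read, so a tract used from another start would not be seen, and the search says nothing about how these mRNAs were translated. EEF1D, EEF1A2, EIF2S2, EIF3A, EIF3E, EIF3G, EIF3H, EIF3L and EIF4EBP1 had no entry.

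All 49 members were read at 1 TPM or more in both libraries, as were 15188 genes in all. The median of the members' mean levels was 217 TPM, beside 14.3 TPM over the detected genes, and 34 members lay in the top 10% of detected genes. 48 of the 49 lay above the median detected gene, the exception being EIF5A2. The members held 2.59% of all TPM in replicate 1 and 2.39% in replicate 2 (2.49% ± 0.144, SD, n = 2), and EEF2, EEF1A1 and EEF1G alone made up 49.3% and 46.7% of the members' sum.

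**Figure D1:**
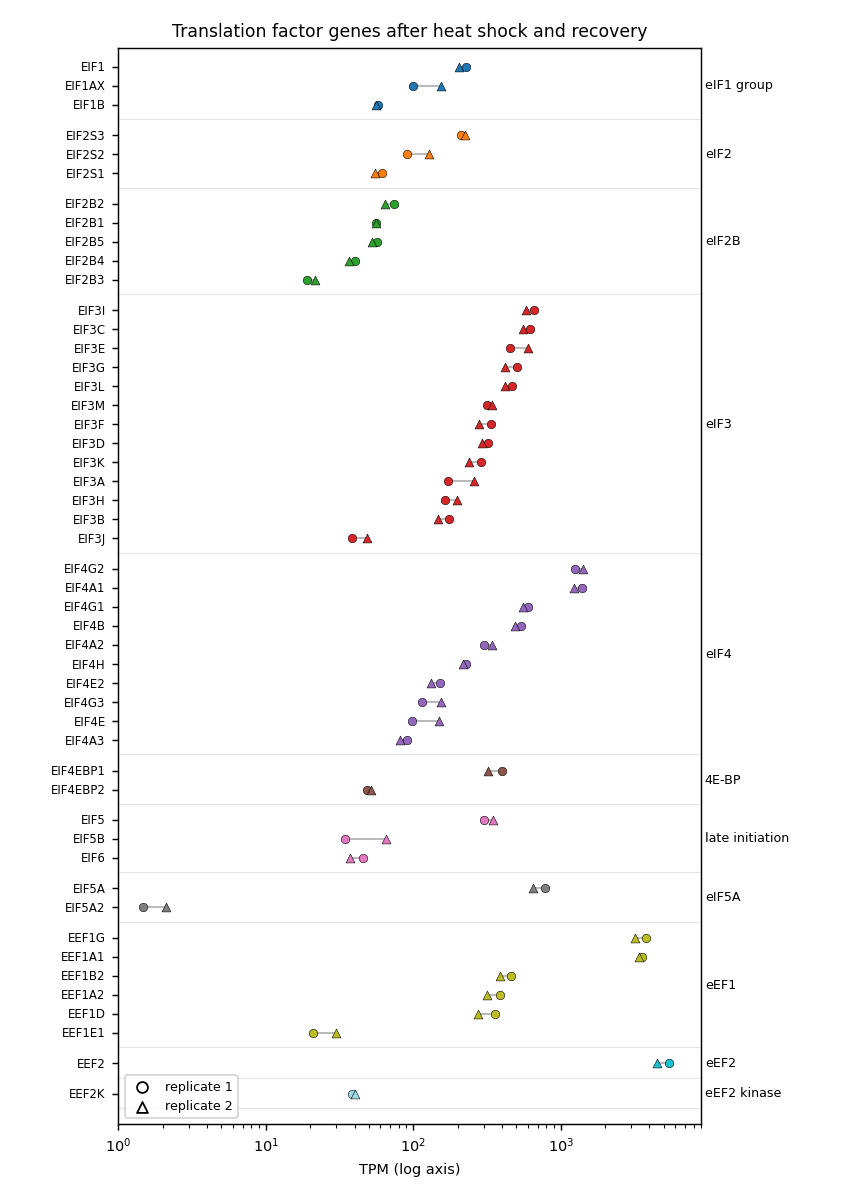
Deposited TPM, without copies, of each of the 49 genes on a log axis, grouped by complex and ordered within it by mean level, with replicate 1 as circles and replicate 2 as triangles. EEF2 sits highest at 5451 and 4520 TPM and EIF5A2 lowest at 1.46 and 2.12 TPM, and the distance between the points of a gene is small against the range between genes.

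Of the members, the elongation factor genes EEF2, EEF1G and EEF1A1 had the highest TPM. EEF2 (chr19:3976054-3985461, GRCh37, minus strand), the translocase, was read at 5451 TPM in replicate 1 and 4520 TPM in replicate 2, rank 13 of all listed genes by mean level. EEF1G, a structural subunit of the exchange complex of eEF1A, had 3772 and 3211 TPM. EEF1A1, which delivers aminoacyl-tRNA, had 3554 and 3419 TPM. EEF1G and EEF1A1 thus stood at ranks 25 and 26, and their mean levels of 3491 ± 397 and 3486 ± 95.5 TPM (SD, n = 2) differed by less than the spread of either. The order of these 3 genes rests on how reads and lengths were assigned: with the TPM of its copies added, EEF1A1 came to 6292 and 6215 TPM, above EEF2 in both libraries, and with a fixed transcript length the means were 3925 TPM for EEF2, 3552 TPM for EEF1G and 2011 TPM for EEF1A1. EEF1B2 and EEF1D, the exchange factors that reload eEF1A with GTP, were lower, at 458 and 386 TPM and at 357 and 274 TPM. EEF1A2, the form of eEF1A known from neurons and muscle, had 386 and 319 TPM. EEF1A1 over EEF1A2 was 3.20 and 3.42 on the log2 scale, or 9.21-fold and 10.7-fold. EEF1E1, which is named as an eEF1 member but belongs to the multisynthetase complex, was far lower than the rest of the group at 20.9 and 29.9 TPM. EEF2K, the kinase that inhibits eEF2, had 38.4 and 40.4 TPM, so that EEF2 was 142-fold and 112-fold higher than its kinase.

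The eIF3 genes encode the 13-subunit scaffold that holds the small ribosomal subunit ready for the mRNA. Their median was 324 TPM in replicate 1 and 293 TPM in replicate 2, and 10 of the 13 lay within 2-fold of that median in both libraries. With a fixed transcript length, and by the mean of both libraries rather than in each, 6 of the 13 lay within 2-fold of their median. EIF3C, EIF3I and EIF3G were then at 2.43, 2.41 and 2.002 times the median. EIF3H, EIF3F, EIF3M and EIF3J were at 0.358, 0.286, 0.243 and 0.128 times the median. EIF3I was highest by mean level at 663 and 587 TPM, and EIF3C followed at 619 and 554 TPM, although EIF3E, at 457 and 596 TPM, was above both in replicate 2. EIF3J, which encodes a loosely bound subunit, stood apart at 38.7 and 48.7 TPM, 0.119 and 0.166 times the median. EIF3A and EIF3B, which form the core on which the others assemble, were in the lower part of the order at 172 and 259 TPM and at 175 and 147 TPM. In the order of mean levels, 3 of the 12 gaps between neighbours were larger than the larger SD of the pair: EIF3L to EIF3M, EIF3D to EIF3K, and EIF3B to EIF3J. The remaining gaps were no larger than that SD. It is the SD of 1 gene's level and not of the gap within each library, so it does not show that neighbours were equal. Of the 12 pairs, 6 kept their order in both libraries, EIF3I above EIF3C among them.

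**Figure D2:**
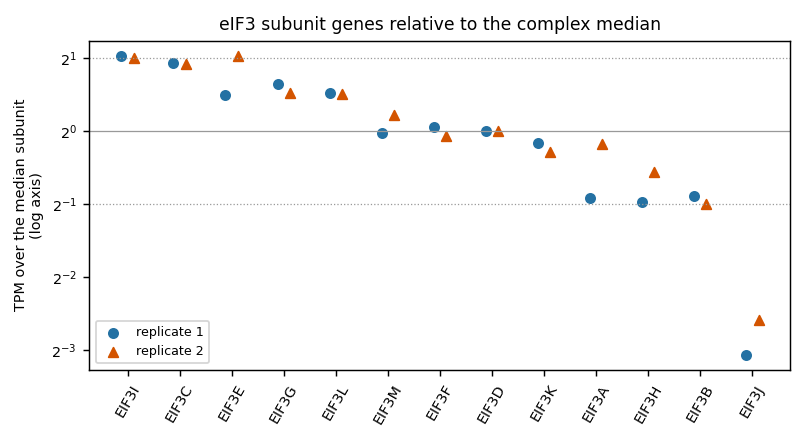
TPM of each eIF3 subunit gene divided by the median subunit of its library, on a log axis, with circles for replicate 1 and triangles for replicate 2 and dotted lines at 0.5 and 2. EIF3J lies at 0.119 and 0.166 in the 2 libraries, and EIF3I and EIF3E reach just past 2.

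The eIF2 genes, whose product brings the initiator tRNA, had a lower median than those of eIF3, with overlapping ranges. EIF2S3, the gamma subunit that binds GTP and tRNA, had 210 and 223 TPM, EIF2S2, the beta subunit, had 91.1 and 128 TPM, and EIF2S1, the alpha subunit that is phosphorylated under stress, had 61.6 and 55.3 TPM. The 3 subunits of 1 complex therefore spanned 3.41-fold in replicate 1 and 4.04-fold in replicate 2. The eIF2B genes lay at 19.0 to 74.4 TPM in replicate 1 and 21.7 to 64.3 TPM in replicate 2. EIF2B2, the beta subunit, was the highest of them at 74.4 and 64.3 TPM, EIF2B5 and EIF2B4, the epsilon and delta subunits, had 56.8 and 52.6 TPM and 40.6 and 36.8 TPM, and EIF2B3, the gamma subunit, was the lowest. By medians, eIF2 was 1.62-fold and 2.44-fold above eIF2B (log2 0.70 and 1.29), and eIF3 was 3.55-fold and 2.28-fold above eIF2 (log2 1.83 and 1.19).

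Among the genes for cap binding and unwinding, the spread was wide. EIF4A1, the main helicase, had 1395 and 1230 TPM, and EIF4G2, a scaffold-like protein that lacks the cap-factor binding site, had 1242 and 1429 TPM. EIF4G1, the scaffold, had 601 and 557 TPM, and EIF4B, a helicase cofactor, 534 and 492 TPM. EIF4E, the cap-binding protein, had 98.8 and 149 TPM, near the low end of the group. EIF4A1 over its paralogue EIF4A2 was 4.64-fold and 3.62-fold, and EIF4G1 over EIF4G3 was 5.26-fold and 3.61-fold. EIF4A2, EIF4H, EIF4E2, EIF4G3 and EIF4A3 made up the rest of the group, from 81.1 to 340 TPM. EIF4EBP1, the repressor that holds EIF4E under mTORC1 control, had 397 and 321 TPM, so EIF4E was below it, at log2 -2.01 and -1.11. EIF4EBP2 had 48.2 and 51.4 TPM.

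The remaining factors act around start codon choice and subunit joining. EIF1, which guards start codon fidelity, had 228 and 203 TPM and its relative EIF1B 57.6 and 56.3 TPM, while EIF1AX had 99.4 and 154 TPM. EIF5, which triggers GTP hydrolysis by eIF2, had 301 and 348 TPM. EIF5B, the GTPase of subunit joining, had 34.4 and 64.9 TPM, and EIF6, which keeps the large subunit from joining early, had 45.9 and 37.1 TPM. EIF5A, the hypusine-bearing factor, had 785 and 651 TPM, whereas its paralogue EIF5A2 had 1.46 and 2.12 TPM from 68 and 128 counts. That was the widest difference among the pairs compared, log2 9.07 and 8.26.

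Ordered by the mean of the medians, eEF2 (4985 ± 658 TPM, SD, n = 2) was followed by eEF1 (387 ± 49.1), eIF5A (360 ± 47.1), eIF3 (308 ± 21.8), eIF4 (271 ± 9.83), 4E-BP (205 ± 25.8), the eIF1 group (127 ± 38.3), eIF2 (110 ± 26.3), late initiation (55.4 ± 13.4), eIF2B (54.3 ± 2.47) and the eEF2 kinase (39.4 ± 1.42). Of the 10 steps in this order, 7 were larger than the larger SD. The steps from eEF1 to eIF5A, from the eIF1 group to eIF2 and from late initiation to eIF2B were not, and the last of them also turned between libraries. This SD covers the 2 library medians and not the spread among the genes of a group, so the steps do not separate the complexes. The eEF1 genes ran from 20.9 to 3772 TPM in replicate 1, and the eIF5A median is the midpoint of EIF5A and EIF5A2. With a fixed transcript length 4E-BP (294 TPM) came above eIF3 (266 TPM) and eIF4 (197 TPM), and eIF2 (164 TPM) above the eIF1 group (87.9 TPM). The step from eIF3 to eIF4 was among the 7, with eIF4 over eIF3 at log2 -0.29 and -0.08 by medians. It turned to 0.48 by means and to 0.05 without EIF4A3, an exon junction helicase, so that no order of these groups can be given. With 2 libraries an exact sign test cannot give a p below 0.5, and no p is given for these ratios.

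Members with the pyrimidine start had a median of 324 TPM (n = 10, from 217 to 4985 TPM), and those without it 105 TPM (n = 30, from 1.79 to 3491 TPM). The 9 members without an entry, at mean levels from 110 to 527 TPM, are in neither set and could change both medians. Among all detected protein-coding genes in the table the medians were 30.0 TPM with the pattern (n = 756) and 19.2 TPM without it (n = 9269). The ranges of the members overlapped, since EEF1G, EIF4A1 and EIF4G2 lacked the pattern at mean levels of 3491, 1312 and 1335 TPM.

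**Figure D3:**
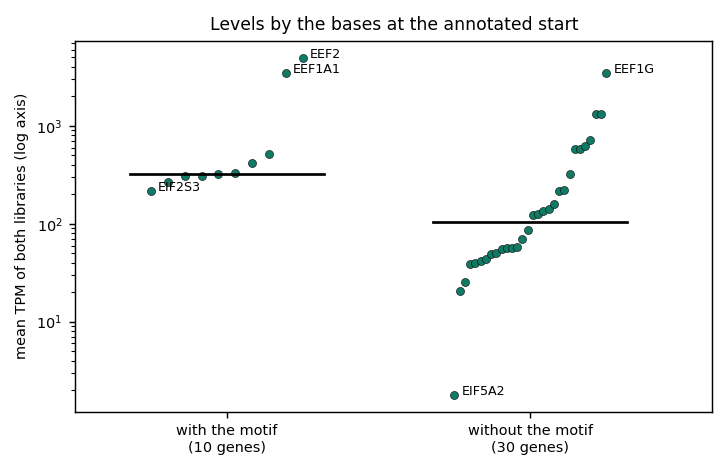
Mean TPM of both libraries on a log axis for the members with a C followed by 4 pyrimidines at an annotated start (10 genes) and without it (30 genes), with a bar at each median. The medians are 324 and 105 TPM, and the groups overlap over most of their range. The 9 members without an entry are not drawn.

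Another feature that the match by symbol did not use was the small nucleolar RNA genes that lie inside the members. Annotated snoRNA genes lay within 9 of the 49 members (18.4%), 17 snoRNA genes in all, beside 332 of 12367 detected protein-coding genes (2.68%). Those 12367 genes were not matched to the members in level. Members with a snoRNA gene inside had a median of 422 TPM and the other members 171 TPM. EIF4A2 held 5 of them, among them SNORD2 and SNORA63, EIF4A1 held SNORA48 and SNORD10, and EEF2 held SNORD37. The others were in EIF1AX, EIF3A, EIF4G1, EIF4G2, EIF5 and EEF1B2.

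Several members share sequence with processed copies elsewhere in the genome, and the estimated counts split reads between them, so these levels are uncertain. Copies were found by symbol, as a member's symbol followed by P and a number or by L. Readthrough genes are therefore not among them. The table listed 153 copies for 28 members, of which 64 had 0 counts in both libraries and 11 reached 1 TPM in both. EEF1A1P5, a processed pseudogene of EEF1A1 at chr9:135894873-135896261 (GRCh37, plus strand), was listed at 2726 and 2783 TPM. It took 43.3% and 44.8% of the TPM of EEF1A1 plus all its copies. Over its 1389 bases EEF1A1P5 differs from the EEF1A1 coding sequence at 4 positions, counted from the A of the start codon: T294C, T720C, T933G and C1094T, with the base of EEF1A1 first. 85.1% of its 50-base stretches, the length of a read, also occur in the EEF1A1 coding sequence, so most reads inside it can be placed in either. The stretch around the first of these positions shows how alike they are, with the differing base in capitals (EEF1A1P5 at chr9:135895141-135895190).
EEF1A1: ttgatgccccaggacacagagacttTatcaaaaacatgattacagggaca
EEF1A1P5: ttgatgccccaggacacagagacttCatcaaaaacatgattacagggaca

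Copies took a smaller part elsewhere. They held 26.3% and 30.0% of the sum for EIF1AX, 14.9% and 13.4% for EIF3F, 13.1% and 17.2% for EIF2S2, 2.23% and 1.15% for EIF3C, and 2.17% and 1.94% for EIF4B. For EIF4E, the copy EIF4EP2 held 3.82% and 1.29%. The copy of EIF3C is EIF3CL, a near-identical protein-coding gene at 14.1 and 6.45 TPM. EEF1E1 also overlaps the readthrough gene EEF1E1-BLOC1S5, at 12.1 and 12.1 TPM where EEF1E1 had 20.9 and 29.9 TPM. The posterior SD of the estimated count of EEF1E1 was 4.22% and 3.22% of that count. For EEF1G, 94.4% of the 50-base stretches are shared with a gene listed only by its identifier, at 8.91 and 8.58 TPM. Counting with copies left the call and the direction of every member between the libraries as they were.

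**Figure D4:**
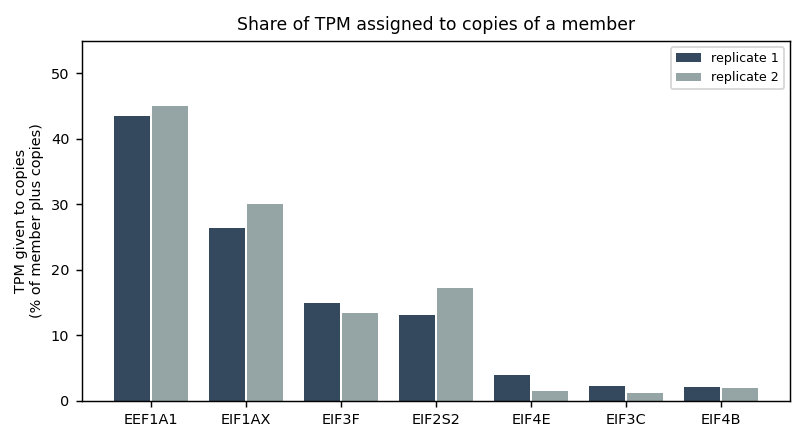
Share of the summed TPM of a member and its copies that was assigned to the copies, in percent, for the 7 members where it was at least 1% in both libraries (dark bars replicate 1, light bars replicate 2). EEF1A1 leads at 43.5% in replicate 1, followed by EIF1AX at 26.3% in replicate 1 and 30.0% in replicate 2. Readthrough genes are not counted as copies.

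The replicates differed from each other beyond counting error for most members. In an exact two-sided binomial test on the rounded expected counts, with Benjamini-Hochberg adjustment over the 19714 genes whose counts summed to 10 or more, 45 of 49 members passed 0.05, beside 43.1% of all genes tested. Of the 45, 15 were higher in replicate 2 (20.9% of all genes) and 30 higher in replicate 1 (22.2% of all genes). The test compares 2 libraries and not conditions, and the members are read deeply, so small differences pass: where counts summed to 100 or more, 58.4% of genes passed. Of those genes, 27.0% were higher in replicate 2 and 31.4% higher in replicate 1. No member both passed and differed 2-fold. Over the 19714 genes tested 5.51% did, but that set includes genes with fewer counts than any member, so the shares are not at like depth. Within 1.5-fold lay 46 of 49 members, beside 88.1% of genes whose counts summed to 100 or more. The largest ratio of replicate 2 over replicate 1 was that of EIF5B, from 2796 and 6427 counts, at log2 0.90 (adjusted p = 3.83e-175, exact binomial test). EIF1AX followed at 0.66 and EIF5A2 at 0.60, whereas EIF6 was lowest at -0.46 and EEF1D next at -0.44. With TMM factors estimated on all listed genes in place of those above the count limit, 44 members passed beside 42.2% of all genes, EIF1B being the one lost. When the spread between cultures was set at 0.1 (a biological coefficient of variation) in edgeR's exact test, below the 0.2005 that edgeR estimated over all genes from these libraries, only EIF5B (adjusted p = 0.000642) and EIF1AX (adjusted p = 0.0264) passed, beside 7.24% of all genes. Both were higher in replicate 2, as were 6.69% of all genes.

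The ratio moved with base composition. Over the 49 members it had Pearson's r = -0.763 and Spearman's rho = -0.843 with the GC content of the transcripts, beside -0.618 and -0.692 over 13544 genes, a description across genes that share the same pair of libraries. Of the 17 members under 45% GC, 14 were higher in replicate 2, and of the 32 at or above it 3 were. With the GC trend of all genes subtracted, 41 members passed, 6 higher in replicate 2 and 35 higher in replicate 1, beside 28.6% of all genes (14.7% and 13.9%). The median log2 ratio of the members was -0.188 before this step, beside -0.001 over all genes tested, and -0.161 after it. The members thus stayed lower in replicate 2 than genes of like GC content. EIF5B and EIF1AX remained higher in replicate 2, at log2 0.55 and 0.18, while EIF3J turned from 0.23 to -0.53 and EIF3E from 0.28 to -0.34. The part of base composition in these differences was not tested beyond this.

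**Figure D5:**
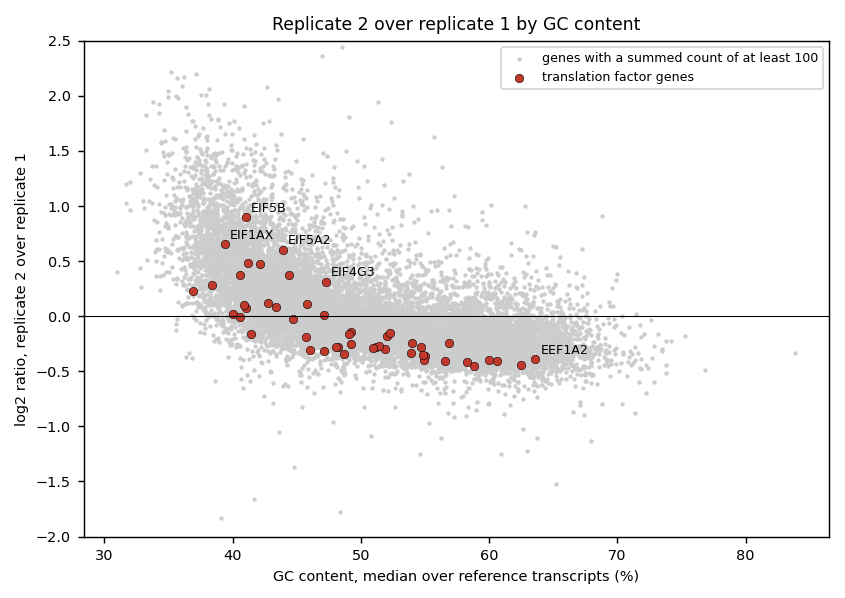
Log2 ratio of replicate 2 over replicate 1, scaled by TMM factors, against GC content in percent for 13538 genes whose counts summed to 100 or more (grey; 6 more lie outside the axis) and the 49 members (red). The members also fall with GC content, with EIF5B highest at 0.90. Their median log2 ratio was -0.188, below the -0.001 of all genes tested.

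By complex, eIF2B had 4 of 5 members called higher in replicate 1 and eEF1 5 of 6 (22.2% of all genes), while eIF2 had 2 of 3 called higher in replicate 2 (20.9% of all genes). Where counts summed to 100 or more, these shares were 31.4% and 27.0%. In eIF3, 8 of 13 were higher in replicate 1 and 4 in replicate 2. After subtraction of the GC trend, eIF2B had 2 higher in replicate 1, eEF1 5, and eIF3 11 with 1 higher in replicate 2. In that fit 13.9% of all genes were higher in replicate 1 and 14.7% in replicate 2. For eIF2, 2 were then higher in replicate 1 and 1 in replicate 2, and the median log2 ratio turned from 0.077 to -0.27. The median GC content of these groups was 51.9% for eIF2B, 51.8% for eEF1, 41.0% for eIF2 and 48.1% for eIF3. The direction also depended on the scale for 5 members, which had a ratio of counts on one side and of TPM on the other. EIF2B1 and EEF2K were called higher in replicate 1 by counts (log2 -0.15 for each) although their TPM was 56.1 and 56.2, and 38.4 and 40.4. EIF2S1, EIF3M and EIF4EBP2 were not called. EIF2S1 was assigned a transcript length of 1143 bases in replicate 1 and 1393 bases in replicate 2.

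Other genes of the pathway, taken from lists, were counted in the same test, in which 20.9% of all genes were higher in replicate 2 and 22.2% in replicate 1. Of 12 other initiation factors, 5 were called higher in replicate 2 and 3 in replicate 1. PAIP2, which restrains the poly(A)-binding protein, was highest by mean level at 184 and 223 TPM, and EIF4EBP3 lowest at 0.48 and 0.61 TPM. EIF5AL1, at 0.79 and 0.36 TPM, was below EIF4EBP3 in replicate 2. The readthrough gene ANKHD1-EIF4EBP3 was listed at 3.17 and 15.9 TPM. The posterior SD of its estimated count was 334 on 386 counts in replicate 1 and 372 on 2446 counts in replicate 2. EIF3CL and EIF5AL1 passed an absolute log2 ratio of 1, at -1.25 and -1.27, and both are near-identical relatives of a member. EIF5AL1 had 54.6 and 28.5 counts, and the credibility intervals of its TPM did not overlap (0.564 to 1.00 and 0.223 to 0.511). For EIF3CL the posterior SD of the estimated count was 217 on 782 counts in replicate 1 and 192 on 406 counts in replicate 2, and the credibility intervals of its TPM overlapped (5.42 to 18.7 and 2.01 to 12.7), so its difference lay within the uncertainty of sharing out reads. Of 6 termination and recycling genes, ABCE1 and HBS1L were called, both higher in replicate 2, with GSPT1 highest at 235 and 241 TPM and GSPT2 lowest at 2.08 and 1.98 TPM. Of 8 genes that modify eIF5A or eEF2, 1 was higher in replicate 2 and 4 in replicate 1, with DHPS, the first enzyme of hypusine synthesis, highest at 103 and 89.7 TPM and DPH6 lowest at 3.50 and 4.39 TPM. Of 9 genes of the mTORC1 arm, 1 was higher in replicate 2 and 7 in replicate 1. LARP1, which binds mRNAs with a pyrimidine start, was highest at 461 and 472 TPM, and RPTOR lowest at 22.7 and 20.5 TPM. With the GC trend removed, the calls higher in replicate 2 and in replicate 1 became 2 and 3 for the other initiation factors, 0 and 3 for termination and recycling, 0 and 1 for the modifiers, and 2 and 4 for the mTORC1 arm, beside 14.7% and 13.9% of all genes.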

How the data were processed

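Both libraries were trimmed with Trimmomatic 0.36, aligned with STAR 2.6.1c and quantified with RSEM 1.3.1 on hg19 (GRCh37.p13), per the labels; the study's methods name featureCounts instead. The labels call the molecule genomic DNA, although their protocols describe poly(A)+ RNA. The authors deposited expected counts per gene, which RSEM estimates by sharing out reads, and TPM per gene, which divide by an isoform-weighted length. Whether strand was used is not stated by the labels or methods.

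Here TPM were used as deposited, and expected counts were rounded before testing. Libraries were scaled by TMM (edgeR 4.0.16, R 4.3.3), and each gene was tested by an exact binomial test (scipy 1.17.1) with Benjamini-Hochberg adjustment. TMM factors were estimated on genes whose counts summed to 10 or more. Factors over all listed genes were also tried, and the choice between them was settled after both sets of calls had been seen: 45 members and 8492 genes passed with the first, 44 and 8314 with the second. DESeq2 1.42.0 size factors were an alternative. Log2 ratios used a pseudocount of 0.5. The GC trend was the median ratio in 50 GC classes. Member positions came from GENCODE on GRCh37, and start sequences from RefSeq on GRCh38.p14. The statistics were tested on simulated data.

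All 49 members were named, with the highest and lowest gene of each pathway list, those past an absolute log2 ratio of 1, and copies with at least 1% of the summed TPM. HBS1L, ABCE1 and the cell markers shown were singled out after their values were seen. Members and lists were chosen with earlier results of these data known. The start pattern, the snoRNA count, the limits of 45% GC and 1.5-fold, the neighbour order and the EEF1A1P5 comparison were chosen after the data were seen.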

Additional observations from a re-analysis of the deposited data

How the results depend on the processing

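With 1 group of 2 libraries, the spread between replicates covers these libraries alone, estimated counts carry more than counting error where copies share sequence, and TPM rests on the transcript length that the quantifier chose. No paired analysis was possible because there was only 1 group. All 49 members were detected at limits of 0.1 and 1 TPM, and 48 at 5 TPM, without EIF5A2. With 2 libraries, leaving 1 out returns the value of the other, which is no check of stability. Without replicate 1, EIF5A over EIF5A2 was 307-fold and without replicate 2 it was 538-fold, EIF4EBP1 over EIF4E was 2.16-fold and 4.02-fold, eIF3 over eIF2 was 2.28-fold and 3.55-fold, and eIF2 over eIF2B was 2.44-fold and 1.62-fold.

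The members' share of 2.49% became 2.67% of expected counts, 3.08% without nuclear copies of mitochondrial genes, 2.78% with the members' copies and 1.98% with a fixed transcript length, an alternative added after the data were seen, as were the settings without EIF4A3 and without EEF1E1 and the TMM factors over all genes. Of 45 members called, 2 were left in the edgeR exact test with an assumed variation of 0.1 (2 higher in replicate 2, 0 higher in replicate 1, where 5 had an unadjusted p under 0.05) and 0 with an absolute log2 ratio of at least 1 (0 in either direction, although 45 had an unadjusted p under 0.05). With the GC trend removed, 6 rather than 15 were higher in replicate 2, beside 14.7% rather than 20.9% of all genes. TMM over all genes gave 44 (15 and 29), losing EIF1B, beside 42.2% of all genes (22.1% and 20.1%). Library totals gave 43 (15 and 28), losing EIF1B and EIF2B1, beside 41.5% of all genes (23.5% and 18.0%). DESeq2 size factors, the other count minimums and copies changed no call. The cause of these changes was not tested.

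Log2 ratios of complexes moved as follows. By means over members, eIF2 over eIF2B was 1.42, eIF4 over eIF3 reversed to 0.48, eEF1 over eIF3 was 1.97 and eEF2 over eEF1 was 1.88. With a fixed length, eIF3 over eIF2 was 0.72, eIF2 over eIF2B 2.31, eIF4 over eIF3 -0.43, eEF1 over eIF3 0.95 and eEF2 over eEF1 2.92. Without EIF4A3, eIF4 over eIF3 reversed to 0.053. Without EEF1E1, eEF1 over eIF3 was 0.45 and eEF2 over eEF1 3.56. For pairs of genes, a fixed length gave 1.95 for EEF1A1 over EEF1A2, 2.41 for EIF4A1 over EIF4A2, 9.54 for EIF5A over EIF5A2, 0.59 for EIF1 over EIF1B, -3.10 for EIF4E over EIF4EBP1 and 7.45 for EEF2 over EEF2K. Counts without length gave 2.93, 2.31 and 7.41 for the first 3 of these, 6.22 for EEF2 over EEF2K, and reversed EIF4EBP1 over EIF4EBP2 to -0.30. Copies raised EEF1A1 over EEF1A2 to 4.16.

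With the GC trend removed, 8 members reversed: EIF2S1 to -0.41, EIF2S3 to -0.27, EIF3E to -0.34, EIF3J to -0.53, EIF4A2 to -0.27, EIF4G2 to -0.12, EIF5 to -0.10 and EEF1E1 to -0.032. All but EEF1E1 were then called.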
